A study of Sus scrofa with 11 samples.

Results

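The 10 genes described here encode the enzymes and helper proteins that trim procollagen and cross-link the extracellular matrix (ECM). They are the 5 lysyl oxidases (LOX, LOXL1, LOXL2, LOXL3 and LOXL4), transglutaminase TGM2, the procollagen C-proteinases BMP1 and TLL1, and the enhancers PCOLCE and PCOLCE2. They were taken by gene symbol from the 30376 genes measured, and all 10 symbols were found. RNA was sequenced from full-thickness wounds on day 10, cut with a 2 cm punch on the back of female Yucatan minipigs, a breed of small pig. The 7 diabetic wounds came from 1 minipig made diabetic with intravenous streptozotocin (STZ), a toxin of the insulin-producing cells, at 6 months of age. It was wounded 60 days later, after supplemental insulin had been stopped. The 4 non-diabetic wounds came from 1 minipig without STZ diabetes, whose age is not given in the sources used here, with identical wounding and dressings. P-values therefore rest on the spread among wounds within 1 animal per group, and diabetes cannot be told apart from any other difference between the animals.

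Collagen is secreted as procollagen, whose end pieces must be removed before fibrils assemble. BMP1 and its relative TLL1 cut off the C-terminal piece, PCOLCE and PCOLCE2 speed up that cut, and BMP1 also removes the pro-region that keeps LOX inactive. The lysyl oxidases, which carry copper, then oxidise lysines in collagen and elastin into the aldehydes from which cross-links form. TGM2 joins glutamines to lysines in fibronectin and other matrix proteins, in a reaction that needs calcium. Together these reactions turn the loose collagen of granulation tissue into a matrix with tensile strength.

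The catalytic part that makes these 5 genes a family is visible in the coding sequence. The bases that encode the copper-binding stretch are given below from the pig genome (Sscrofa11.1), 5′ to 3′ on the coding strand with the intron removed, and capitals mark the 4 histidine codons. The stretch is 33 bases (11 codons) long and spans an exon junction in every member. It was read from the minus strand at chr2:125602678-125604429 for LOX (exons 3 and 4 of 7), chr7:59486465-59486938 for LOXL1 (exons 3 and 4 of 7), chr14:7443799-7450558 for LOXL2 (exons 11 and 12 of 15) and chr14:109577213-109578356 for LOXL4 (exons 11 and 12 of 15). LOXL3 lies on the plus strand, and its stretch was read at chr3:68515321-68515443 (exons 10 and 11 of 14).
LOX: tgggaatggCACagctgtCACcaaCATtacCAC
LOXL1: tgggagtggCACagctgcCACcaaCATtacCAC
LOXL2: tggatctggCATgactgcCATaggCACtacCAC
LOXL3: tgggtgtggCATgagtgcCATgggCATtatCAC
LOXL4: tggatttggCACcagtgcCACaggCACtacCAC
LOX and LOXL1 shared 31 of the 33 bases (93.94%), and LOXL2 and LOXL4 shared 28 (84.85%). LOX shared 21 bases with LOXL2 and 21 with LOXL3. The coding sequences were 419 codons long for LOX, 591 for LOXL1, 773 for LOXL2, 753 for LOXL3 and 678 for LOXL4. LOXL2, LOXL3 and LOXL4 are the longer forms that carry scavenger receptor cysteine-rich domains before the catalytic part. In the annotation none of the 5 genes shared exon bases with another gene on the same strand, and 3.65% of LOXL3 exon bases overlapped a gene on the opposite strand.

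Between 28314785 and 40168372 reads per wound fell on genes. Values were FPKM (reads scaled by gene length and library size), which put genes and wounds on a common scale only as far as that scaling holds. The FPKM of a library summed to between 366649 and 459514. The labelled tissue, dermal wound and skin, held fibroblast markers in every library, whose summed FPKM lay between 3131 and 6685. Diabetic replicate 4 and non-diabetic replicate 1 stood apart, with a summed FPKM of 6 keratinocyte markers of 34.6 and 249 against 1297 to 6151 in the other wounds. They were also low in 6 neutrophil markers, at 41.4 and 299.9 against 3799.8 to 12589. Diabetic replicate 3 alone held skeletal muscle markers, at a summed FPKM of 1339 against at most 0.198 elsewhere. The comparison of each member was also computed without the wounds that stood apart. Library names begin with L (3 diabetic and 2 non-diabetic wounds) or R (4 and 2), and what the letter stands for is not given, so values within each letter are printed as well.

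No member passed the test for a difference between diabetic and non-diabetic wounds. Genes entered the test where 4 or more libraries reached 0.5 FPKM, which left 13956. Calls required a limma adjusted p below 0.05 together with a log2 fold change above 0.5 in size, and 188 genes were called higher and 231 lower (3.00%). Of the 10 members, 9 passed the filter, PCOLCE being listed at 0 FPKM in every wound, and 0 of the 9 were called. At an unadjusted p under 0.05, 2 of the 9 passed, LOX and LOXL4, where 18.4% of all genes tested did. With limma voom on reads recovered from the FPKM values, 0 members were called, and with library weights 1 was, LOXL4 (5.89% of all genes). In none of the 9 were the FPKM values of the groups free of overlap, which was so in 5.65% of all genes. The median log2 fold change was 0.18 over the members and 0.01 over all genes tested. As these are bulk samples, fewer cells of a type and less RNA per cell cannot be told apart.

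**Figure D1:**
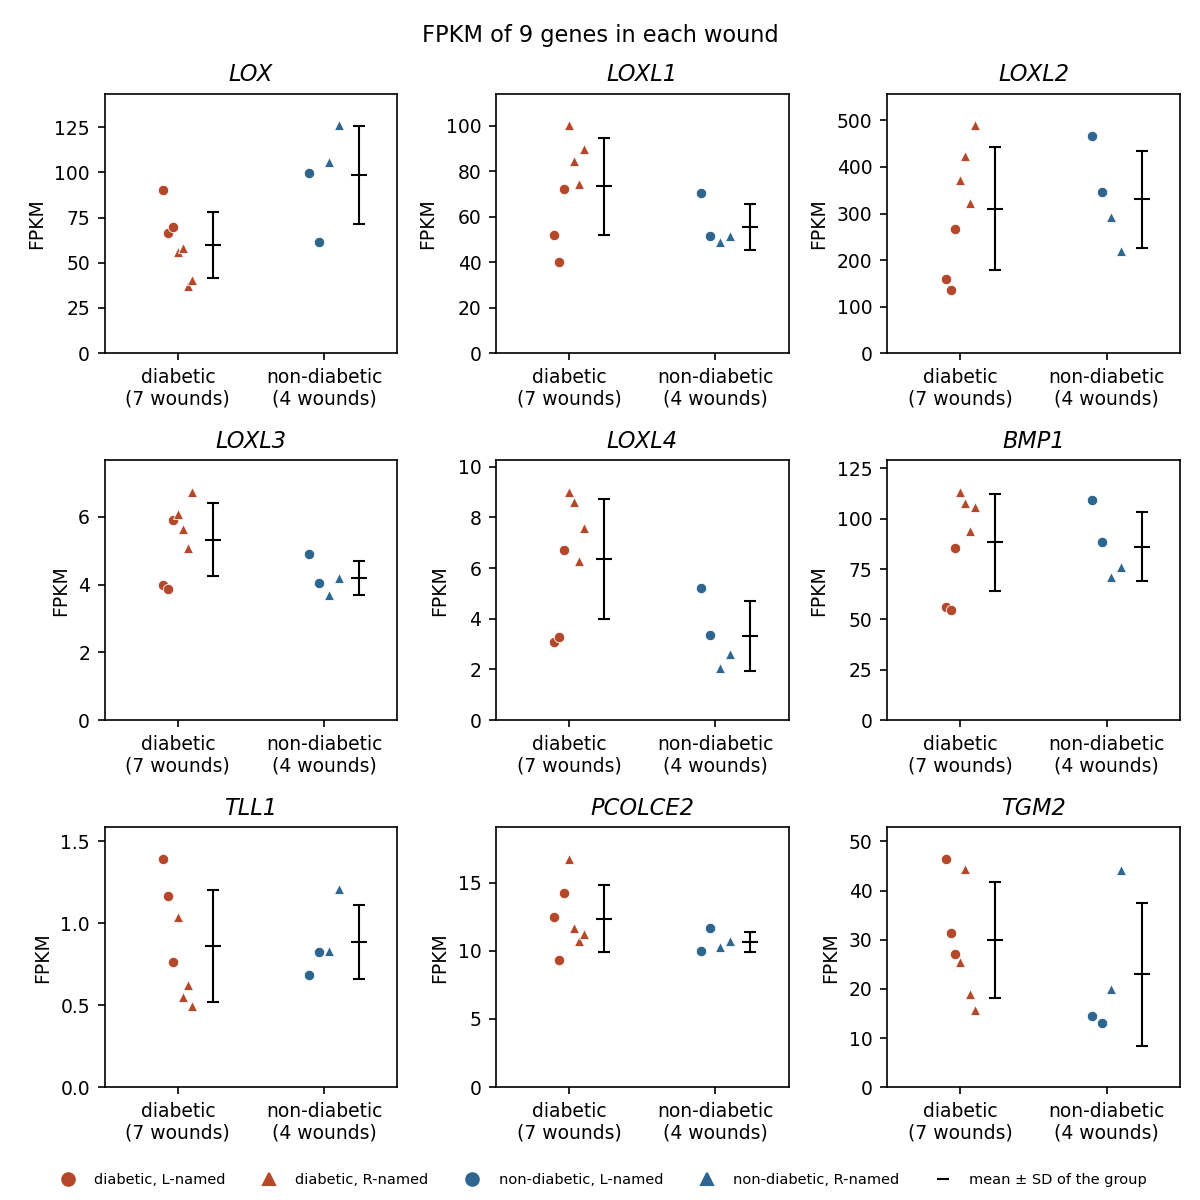
FPKM (vertical axes, starting at 0) of the 9 members with reads in each of 7 diabetic and 4 non-diabetic wounds; circles are L-named and triangles R-named libraries, and bars show the group mean ± SD. The groups overlap in all 9 panels, and within the diabetic wounds the triangles sit below the circles for LOX and above them for LOXL1, LOXL2 and BMP1.

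LOX, the founding lysyl oxidase and a main cross-linker of fibrillar collagen and elastin, had the smallest p of the members and a lower mean in diabetic wounds. Its level ranged from 37.1 to 90.3 FPKM in the diabetic wounds, with a median of 58.0. In the non-diabetic wounds it was 99.5, 61.5, 106 and 126 FPKM. Of the non-diabetic wounds 3 lay above every diabetic wound, and replicate 2 lay among the diabetic ones. Group means were 59.8 ± 18.2 (SD, n = 7) and 98.3 ± 27.1 FPKM (SD, n = 4). The log2 fold change was -0.72 (95% interval -1.28 to -0.17), with an adjusted p of 0.146 by limma and an unadjusted two-sided exact permutation p of 0.0394. LOX therefore missed the threshold, although its interval did not include 0. Without the 2 wounds poor in keratinocyte markers, the log2 fold change was -0.70 (adjusted p = 0.307, limma).

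LOXL2, which cross-links the collagen of basement membranes as well as fibrillar collagen, was the most abundant member. It ranged from 136 to 491 FPKM in the diabetic wounds (median 322) and was 466, 346, 292 and 219 FPKM in the non-diabetic ones. The non-diabetic values lay wholly within the diabetic range, and the log2 fold change was -0.17 (95% interval -0.95 to 0.60, adjusted p = 0.849). An increase or a decrease of up to those bounds was thus not resolved by these wounds. LOXL2 had 21424 to 51850 reads per library, so counting error was small beside the spread between wounds.

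LOXL1, LOXL3 and LOXL4 each had a higher mean in the diabetic wounds, without passing the threshold. LOXL1, the lysyl oxidase tied to elastic fibre upkeep, ranged from 40.1 to 100.4 FPKM with a median of 74.2, against 70.5, 51.3, 48.8 and 51.5 FPKM. Replicates 4, 5, 6, 7 and 3 of the diabetic wounds lay above every non-diabetic wound, and replicate 2 lay below all of them. Its log2 fold change was 0.35 (SE 0.23, adjusted p = 0.458). LOXL4, one of the scarcer lysyl oxidases, ranged from 3.10 to 9.02 FPKM with a median of 6.71, against 5.22, 3.35, 2.05 and 2.63 FPKM. Of the diabetic wounds 5 exceeded all non-diabetic ones, while diabetic replicates 1 and 2, at 3.10 and 3.29 FPKM, lay within the non-diabetic range. The log2 fold change of LOXL4 was 0.83 (95% interval 0.14 to 1.51, adjusted p = 0.182, limma), the largest in size among the members, with an unadjusted exact permutation p of 0.0485. LOXL3, which takes part in collagen cross-linking during development, ranged from 3.87 to 6.75 FPKM (median 5.65) against 4.90, 4.05, 3.70 and 4.18 FPKM. Its log2 fold change was 0.29 (SE 0.15, adjusted p = 0.332). Of 7 macrophage markers 2 rose in diabetic wounds, MRC1 (log2 fold change 0.73, adjusted p = 0.00585) and CD14 (0.76, adjusted p = 0.039, limma). All 7 had a log2 fold change above 0, and none was at 0 in every library. Their summed FPKM was 532 to 1195 in diabetic wounds and 642, 525, 337 and 524 in non-diabetic wounds. Diabetic replicates 4, 5 and 7 had the 3 highest values of both LOXL4 and the macrophage sum, and replicates 1 and 2 the lowest of the diabetic wounds. Among the non-diabetic wounds both were highest in replicate 1 and lowest in replicate 3. The summed fibroblast markers and COL1A1 had the same 3 highest and 2 lowest diabetic wounds, and the same highest and lowest non-diabetic wounds. The fibroblast sum was 3131 to 6685 FPKM in diabetic and 4009 to 6653 FPKM in non-diabetic wounds. Of the B and plasma cell markers 3 of 4 tested rose as well, with a summed FPKM of 45.5 to 103 against 14.7 to 78.0. The part of these markers in the LOXL4 values was not tested. Each library held 261 to 1045 reads of LOXL4 and 578 to 1044 of LOXL3.

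Within a wound, the shares of LOXL1 and LOXL4 among the lysyl oxidase transcripts did not overlap between the groups, whereas no single level was free of overlap. The summed FPKM of the 5 genes overlapped, at 250.02 to 635 in diabetic wounds (median 445) and 646, 466, 453 and 403 in non-diabetic wounds. LOXL2 supplied most of it in every wound, 51.8 to 77.3% in diabetic wounds and 54.2 to 74.2% in non-diabetic wounds. LOXL1 supplied 14.1 to 18.5% (mean 16.3 ± 1.5, SD, n = 7) in diabetic wounds. In non-diabetic wounds LOXL1 supplied 10.9, 11, 10.8 and 12.8% (mean 11.4 ± 0.933, SD, n = 4). Every diabetic wound therefore held a larger LOXL1 share than every non-diabetic wound. The same held for LOXL4, at 1.00 to 1.66% against 0.809, 0.718, 0.454 and 0.652%. Over all genes tested, 2.59% had a ratio to this sum that did not overlap between the groups. These are shares of 1 sum, so a higher share of one gene lowers those of the others, and they are given as descriptions with no test. The LOX share overlapped, from 6.34 to 29.2% in diabetic wounds and from 13.2 to 31.3% in non-diabetic ones, and LOXL3 overlapped as well. The mean difference in LOXL1 share was 4.89 percentage points, and it was 5.69 within L-named and 4.19 within R-named libraries. Without the 2 wounds poor in keratinocyte markers it was 4.37. The LOXL1 level itself was not higher in diabetic wounds within L-named libraries (log2 fold change -0.18), whereas it was within R-named ones (0.79). LOXL2, most of the sum, was lower in the L-named diabetic wounds, at 136 to 266 FPKM against 466 and 346 FPKM. The larger LOXL1 share there thus went with a smaller sum. The LOX share instead turned with the letter, with a difference of 9.82 points within L-named and -18.6 points within R-named libraries.

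**Figure D2:**
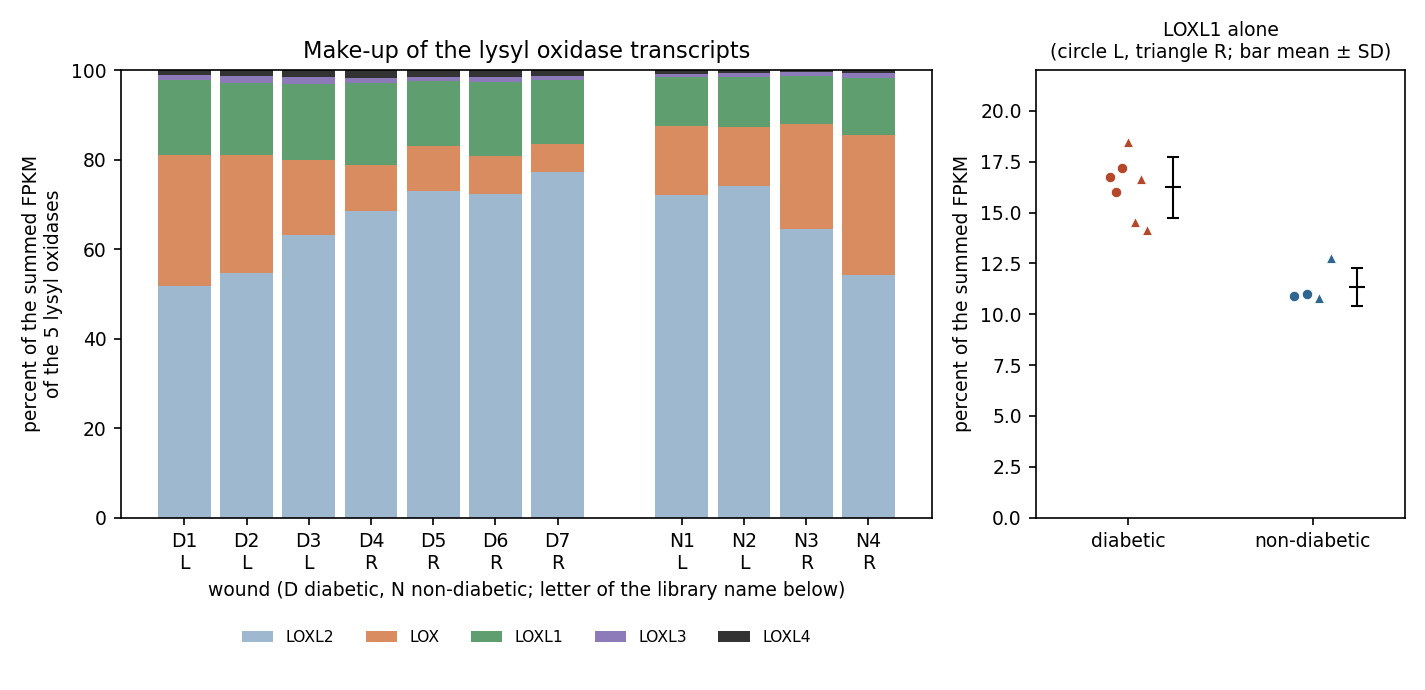
Left, percent of the summed FPKM of the 5 lysyl oxidases supplied by each gene in each wound (stacked bars, D1 to D7 diabetic, N1 to N4 non-diabetic); right, the LOXL1 percent alone, with the group mean ± SD. LOXL1 makes up 14.1 to 18.5% in the diabetic and 10.8 to 12.8% in the non-diabetic wounds.

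Since these enzymes act on collagen, each member was also set against the summed FPKM of COL1A1, COL1A2 and COL3A1, the chains of the main fibrillar collagens of skin. That sum did not separate the groups, at 16724 to 47813 FPKM in diabetic wounds (median 42694) and 59263, 40917, 31360 and 30891 FPKM in non-diabetic ones. LOXL4 per collagen was higher in every diabetic wound, with a log2 ratio of -12.73 to -12.28 against -13.47, -13.58, -13.90 and -13.52. The mean difference was 1.15 on the log2 scale, a 2.22-fold higher ratio. LOXL1 per collagen was also higher in every diabetic wound, at -9.17 to -8.56 against -9.71, -9.64, -9.33 and -9.23, a mean difference of 0.58. These were 2 of the 9 members with reads, where 2.50% of all genes tested had a ratio free of overlap. The LOXL4 difference was 1.12 within L-named and 1.20 within R-named libraries, and 1.17 without the 2 wounds poor in keratinocyte markers. The LOXL1 difference was 0.97 within L-named but 0.24 within R-named libraries, so its size was larger among the L-named wounds. Within L-named libraries the levels themselves were not higher in diabetic wounds (log2 fold change -0.02 for LOXL4 and -0.18 for LOXL1). The collagen sum was lower there, at 16724 to 33415 FPKM against 59263 and 40917 FPKM. Within R-named libraries the levels were higher (1.56 and 0.79), and the collagen sum was 42694 to 47813 FPKM against 31360 and 30891 FPKM. With the fibroblast proteoglycans DCN and LUM in place of the collagens, both stayed free of overlap, with differences of 1.02 for LOXL4 and 0.45 for LOXL1 (2.80% of all genes). LOXL2 per collagen varied least of the 9 members, between -7.14 and -6.61 over all 11 wounds, whereas LOX per collagen spanned -10.21 to -7.76. The part of the macrophage and fibroblast markers, which both ran with the LOXL4 level across wounds, was not tested in these ratios either. Ratios were formed within each wound and no test was run on them.

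**Figure D3:**
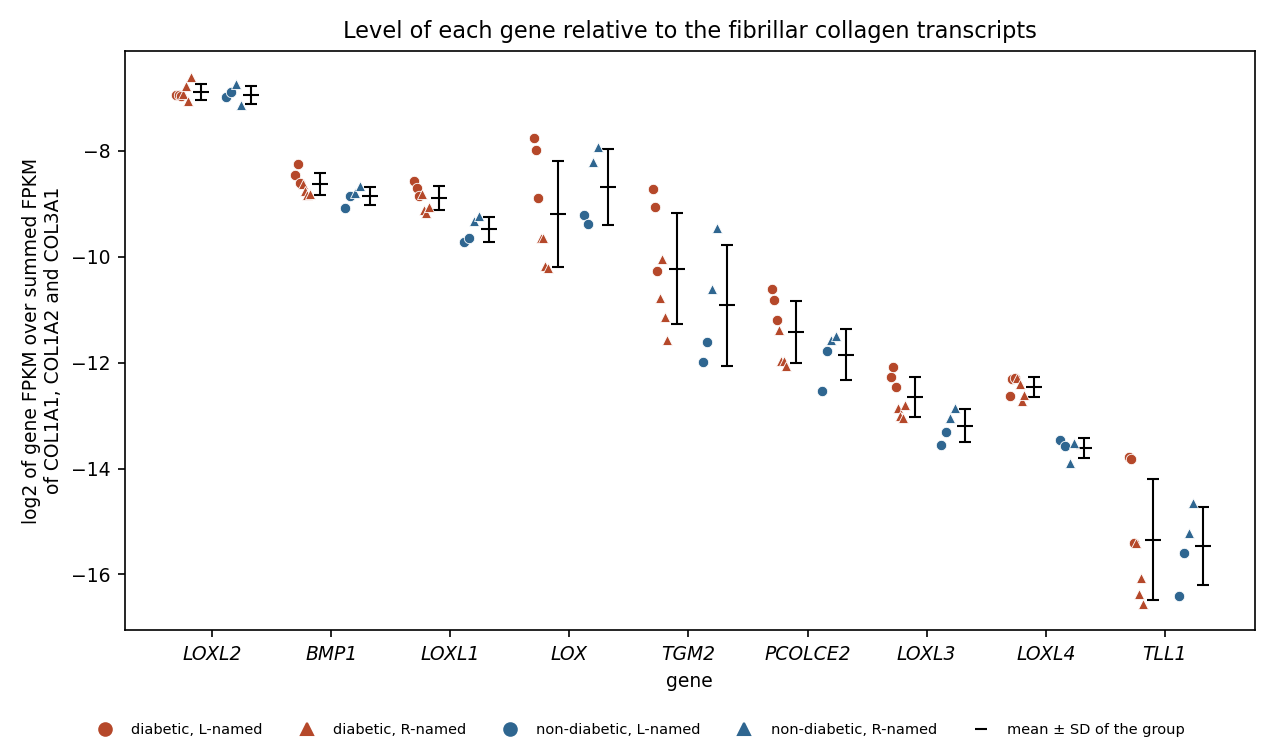
Log2 ratio of each member's FPKM to the summed FPKM of COL1A1, COL1A2 and COL3A1 in each wound (points; circles L-named, triangles R-named; bars group mean ± SD). The diabetic and non-diabetic points of LOXL4 and LOXL1 do not overlap, and those of the other 7 members do.

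Neither of the procollagen C-proteinases was called, and their values overlapped widely. BMP1, the main enzyme of this step, ranged from 54.8 to 113 FPKM in diabetic wounds (median 94.1) and was 109, 88.4, 70.9 and 75.9 FPKM in non-diabetic wounds. The non-diabetic values lay wholly inside the diabetic range. Its log2 fold change was 0.00 (95% interval -0.49 to 0.49, adjusted p = 0.999). TLL1, its scarce relative, ranged from 0.495 to 1.39 FPKM (median 0.765) against 0.685, 0.827, 0.828 and 1.21 FPKM. TLL1 had only 101 to 411 reads per library, and 16.6% of its exon bases overlap genes on the opposite strand. Its log2 fold change was -0.05 (95% interval -0.48 to 0.37, adjusted p = 0.922). PCOLCE2, an enhancer of the C-proteinases, ranged from 9.31 to 16.8 FPKM (median 11.7) against 9.95, 11.7, 10.3 and 10.7 FPKM. It varied least among the non-diabetic wounds, with an SD of 7.05% of the mean. Its log2 fold change was 0.18 (95% interval -0.12 to 0.49, adjusted p = 0.531), and 0.11 without diabetic replicate 4.

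PCOLCE, the other enhancer, was listed at 0 FPKM and 0 recovered reads in all 11 wounds. Its gene model lies at chr3:8523455-8528749 on the plus strand, with 9 exons and a coding sequence of 470 codons. Of its 1688 exon bases, 1682 (99.64%) also belong to exons of FBXO24, an F-box gene annotated on the same strand at chr3:8511426-8528743. FBXO24, which has further exons of its own, had 291 to 575 reads per library. Among protein-coding genes, 32 of 32 with every exon base shared with another gene on the same strand were at 0 in every library. The number was 48 of 58 (82.76%) for genes with at least 95% shared, and 2580 of 16471 (15.66%) for genes with no base shared. The setting by which featureCounts treated reads on overlapping genes is not given in the sources used here. The 0 therefore limits what was counted on this gene model, and it does not show that the transcript was lacking in the wounds.

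**Figure D4:**
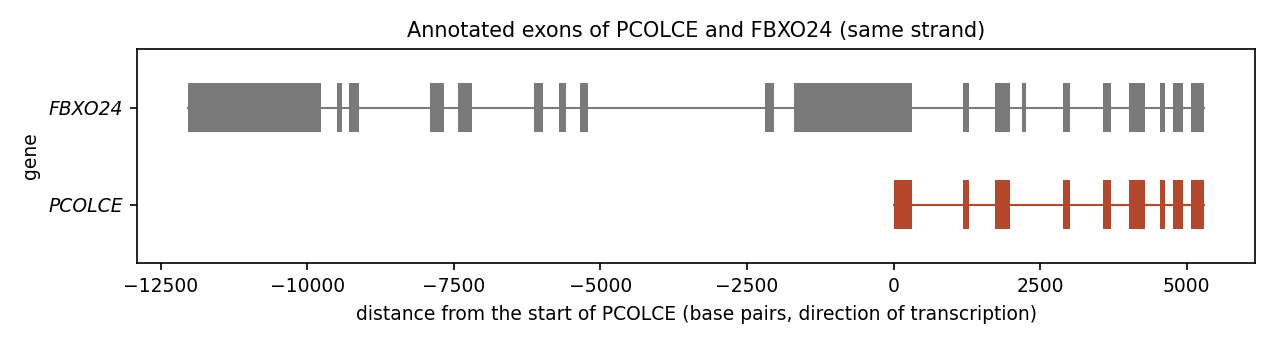
Annotated exons (boxes) of PCOLCE and FBXO24 on the same strand, drawn to scale against the distance in base pairs from the start of PCOLCE. All 9 PCOLCE exons overlap FBXO24 exons, and 1682 of 1688 bases are shared.

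TGM2, the widely expressed tissue transglutaminase, was the most variable member in the non-diabetic wounds. It ranged from 15.7 to 46.5 FPKM in diabetic wounds (median 27.1) and was 14.5, 13.1, 20.01 and 44.3 FPKM in non-diabetic wounds. The SD was 39.5% of the mean in diabetic and 63.2% in non-diabetic wounds. Every diabetic wound exceeded non-diabetic replicates 1 and 2, whereas non-diabetic replicate 4 exceeded all diabetic wounds but 2. The log2 fold change was 0.45 (95% interval -0.35 to 1.25, adjusted p = 0.562). Single non-diabetic wounds moved this value, to 0.82 without replicate 4 (unadjusted p = 0.0273, adjusted p = 0.246, limma). It was 0.25 without replicate 2 and 0.30 without replicate 1.

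The comparison was also made within each letter of the library names. Within R-named libraries (4 against 2), 4 of the 9 members were called, in a comparison that called 10.1% of all genes. LOX was lower (log2 fold change -1.29, adjusted p = 0.0246), and LOXL4 (1.56, adjusted p = 0.0132), LOXL1 (0.79, adjusted p = 0.0243) and BMP1 (0.51, adjusted p = 0.0323) were higher. Within L-named libraries (3 against 2), 0 of the 9 were called, where 0.0645% of all genes were. The members with the smallest p there were LOXL2 (log2 fold change -1.16), BMP1 (-0.61) and TGM2 (1.28), with adjusted p-values of 0.214, 0.294 and 0.136 (limma). Whether the group difference itself depended on the letter was tested as an interaction, which was called for LOXL2 and BMP1 and not for the other 7 members. Its adjusted p was 0.0538 for LOXL4, 0.0621 for LOX, 0.0855 for LOXL1, 0.120 for TGM2 and 0.168 for TLL1 (limma). The calls of LOX, LOXL1 and LOXL4 within R-named libraries are therefore not shown to differ from the L-named estimates, which were -0.06, -0.18 and -0.02.

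**Figure D5:**
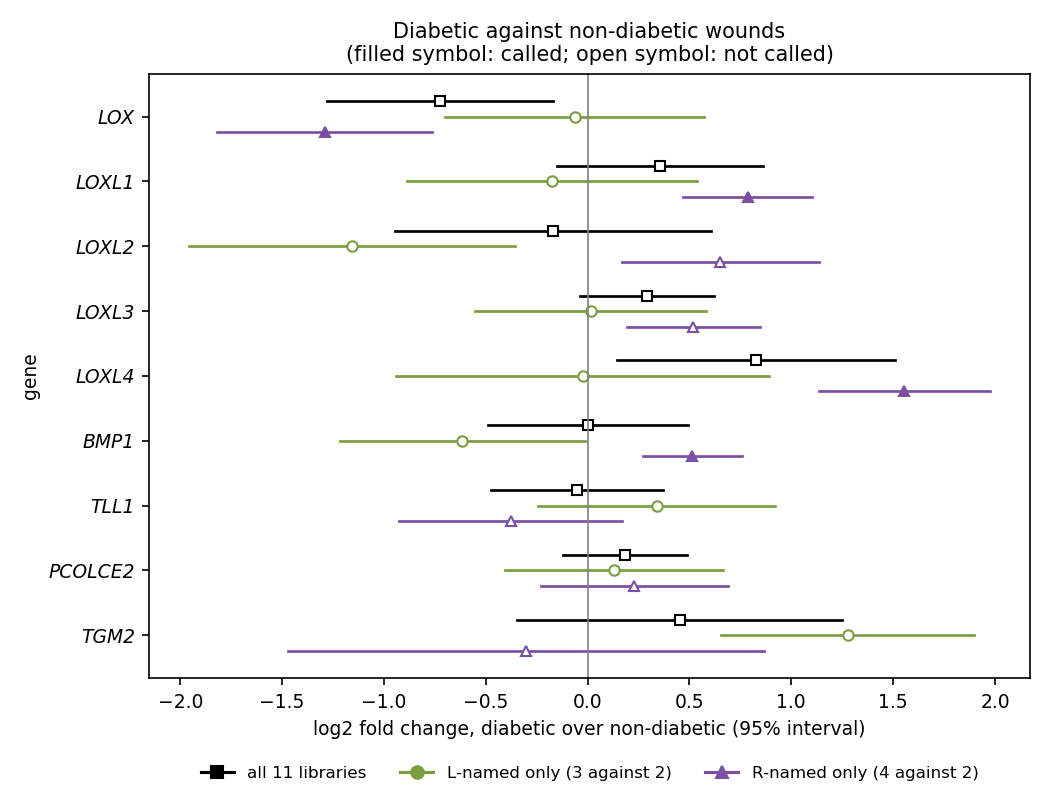
Log2 fold change of each member, diabetic over non-diabetic, with its 95% interval from limma, for all 11 libraries (black squares), L-named (green circles) and R-named (purple triangles) libraries; filled symbols are called. LOX, LOXL1, LOXL4 and BMP1 are called within R-named libraries and no member is called in the other 2 fits.

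Among the diabetic wounds themselves, LOXL2 and BMP1 differed by letter. LOXL2 was 160, 136 and 266 FPKM in the L-named wounds and 322 to 491 FPKM in the R-named ones, a log2 difference (L minus R) of -1.14 (adjusted p = 0.0453). BMP1 was 56.2, 54.8 and 85.3 FPKM against 94.1 to 113 FPKM, a log2 difference of -0.71 (adjusted p = 0.0453). Both were called in a comparison that called 3.77% of all genes. In the non-diabetic wounds the L-named values were the higher ones, at 466 and 346 against 292 and 219 FPKM for LOXL2. The letter effect differed between the groups for both genes (interaction -1.81, adjusted p = 0.0418 for LOXL2, and -1.13, adjusted p = 0.0426 for BMP1, limma), where 6.46% of all genes had a called interaction. The collagen sum moved with the same wounds, at 16724 to 33415 FPKM in L-named and 42694 to 47813 FPKM in R-named diabetic wounds. The summed fibroblast markers were 3131 to 4672 in L-named against 4480 to 6685 FPKM in R-named diabetic wounds, and the summed macrophage markers 532 to 762 against 710 to 1195 FPKM. KRT5, a keratin of basal keratinocytes, ran the other way without overlap, at 1986 to 2861 against 29.2 to 1278 FPKM. The whole keratinocyte sum overlapped (2332 to 3771 against 34.6 to 6151 FPKM) and did not follow KRT5. Among the diabetic wounds it was highest in R-named replicates 6 and 7 (6151 and 5164 FPKM), where KRT5 was 1112 and 1278 FPKM. KRT5 therefore does not stand for the keratinocyte list. The part of these markers in the result was not tested.

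The members fell into sets that varied together from wound to wound, which is given as a description over 11 wounds that share their groups and letters. LOXL1, LOXL3 and LOXL4 correlated at r = 0.92 to 0.93 with each other (Pearson, log2 values). BMP1 and LOXL2 correlated at 0.94 with each other and at 0.98 and 0.96 with COL1A1. LOX ran the other way, with r from -0.69 (LOXL4) to -0.37 (LOXL2) with its relatives and -0.39 with COL1A1. TLL1 likewise ran against LOXL2 (-0.82). Over all genes tested, those most like LOX were KLHDC10 (0.95), LAMB1 (0.95), a laminin chain of basement membranes, and ZYG11B (0.95). Most like LOXL4 were LOC110257935 (0.98), RIN3 (0.98) and TMEM8A (0.97). Most like LOXL3 were ELMO1 (0.96), CRTC2 (0.95) and KCTD17 (0.95), and most like LOXL1 were VSTM4 (0.98), FAM189B (0.98) and ADCY6 (0.97).

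The wider pathway was read from 8 lists with 55 symbols, of which 54 were found and 45 tested. In these lists 0 genes were called higher and 1 lower, where 3.00% of all genes were called, and the median log2 fold change was -0.05. The gene called was PLOD2, the lysyl hydroxylase that prepares collagen telopeptides for stable cross-links. PLOD2 ranged from 19.6 to 32.2 FPKM in diabetic wounds (median 25.3) and was 51.2, 42.1, 47.8 and 60.1 FPKM in non-diabetic wounds. The groups did not overlap, and PLOD2 fell in diabetic wounds (log2 fold change -0.98, SE 0.13, adjusted p = 0.00243, limma). The other 5 tested genes among lysyl hydroxylases and collagen chaperones were not called, and the most abundant, SERPINH1, a collagen chaperone, averaged 790.2 and 747 FPKM.

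Substrates of these enzymes gave no call. Of 9 tested fibrillar procollagen chains 0 were called and 1 had a log2 fold change above 0, with a median of -0.20. The most abundant were COL3A1, at 12614 ± 3949 (SD, n = 7) and 14812 ± 4212 FPKM (SD, n = 4), and COL1A1, at 13069 ± 5867 (SD, n = 7) and 13327 ± 4950 FPKM (SD, n = 4). Of 9 elastic fibre and scaffold genes 0 were called and 5 had a log2 fold change above 0, with a median of 0.0008. FN1, which encodes fibronectin, the substrate of TGM2 and a carrier of BMP1 and LOX, had the highest mean of them in diabetic wounds, and POSTN in non-diabetic wounds. FN1 ranged from 436 to 696 FPKM in diabetic wounds (median 602) and was 1041, 793, 783 and 915 FPKM in non-diabetic wounds. Its groups did not overlap, yet its adjusted p was 0.0567 (log2 fold change -0.59, limma). POSTN, whose product periostin brings BMP1 to LOX, and FBN1, the fibrillin of elastic fibres, were picked after their values were seen. POSTN averaged 490.2 ± 228 (SD, n = 7) and 1040.3 ± 236 FPKM (SD, n = 4). The log2 fold changes of POSTN and FBN1 were -1.18 (adjusted p = 0.0698) and -0.55 (adjusted p = 0.0595).

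The remaining lists were small. Of 3 tested N-proteinases 0 were called, and ADAMTS2, which removes the N-terminal piece of procollagen, averaged 67.6 and 83.1 FPKM (log2 fold change -0.32, adjusted p = 0.470). Of 4 tested transglutaminases other than TGM2, 0 were called, and F13A1, the A chain of clotting factor XIII, averaged 42.4 and 31.7 FPKM (0.46, adjusted p = 0.322). Of 6 other BMP1 substrates, 5 copper transport genes and 3 secreted regulators of procollagen cleavage, 0 were called in each. Their most abundant genes were BGN (log2 fold change 0.15), ATOX1 (-0.05), a copper chaperone, and SFRP2 (0.94, adjusted p = 0.342), which can modulate BMP1.

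The bases before the annotated starts of LOX and LOXL4 are shown because these 2 members had an unadjusted p under 0.05, although neither was called. Each sequence holds 250 bases of the Sscrofa11.1 minus strand, 5′ to 3′, ending just before the start, from chr2:125607027-125607276 for LOX and chr14:109593409-109593658 for LOXL4. Capitals mark ACGTG and GGGCGG, searched on both strands.
LOX: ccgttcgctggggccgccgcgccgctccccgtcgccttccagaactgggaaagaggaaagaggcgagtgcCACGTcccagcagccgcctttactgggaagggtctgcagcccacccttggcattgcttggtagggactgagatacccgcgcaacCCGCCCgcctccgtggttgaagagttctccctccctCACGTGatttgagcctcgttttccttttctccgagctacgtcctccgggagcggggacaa
LOXL4: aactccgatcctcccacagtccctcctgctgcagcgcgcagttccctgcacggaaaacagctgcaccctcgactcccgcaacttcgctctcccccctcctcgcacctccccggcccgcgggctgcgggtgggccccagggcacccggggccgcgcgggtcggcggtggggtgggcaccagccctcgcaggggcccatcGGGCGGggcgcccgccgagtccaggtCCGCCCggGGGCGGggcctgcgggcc
LOX held 3 matches of ACGTG, a form of the core of hypoxia response elements, at 180, 60 and 59 bases before the start, the last 2 overlapping on opposite strands. It held 1 match of GGGCGG, the core of a GC box, whereas LOXL4 held 3 of GGGCGG and 0 of ACGTG. Of 20658 genes, 18.24% held ACGTG and 44.42% GGGCGG in a window of this length. Also searched were TATAAA (10.43% of genes), TGANTCA (5.47%) and GCGTG (31.17%), none of which was found in either window. A match describes the letters and not a bound site.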

How the data were processed

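The authors sequenced poly-A RNA from 7 diabetic and 4 non-diabetic wounds (directional libraries), used fastp for trimming and HISAT2 2.2.1 for alignment to Sscrofa11.1, and quantified them with StringTie 2.2.3 and featureCounts 2.0.6. The deposited values are FPKM for 30376 genes, with gene length (in base pairs, another deposited column) and library size divided out by the authors in a way that is not given in the sources used here. Reads were recovered by multiplying FPKM by gene length and dividing by a step per library, which was estimated from the same values. Of the values above 0, 100.0% were then whole reads to within 0.05 reads. Libraries held 28314785 to 40168372 gene reads, and each read was worth 0.0112 to 0.0194 FPKM for a 2 kb gene.

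Groups were taken from the labels. Genes that reached 0.5 FPKM in 4 or more libraries entered a comparison of log2(FPKM + 0.5), a scale that understates changes of low genes such as TLL1, with limma 3.58.1 (trend, Benjamini-Hochberg over 13956 genes) in R 4.3.3. For single members an exact permutation test, two-sided, was run over 330 splits (smallest p 0.00303). Letter effects and their interaction with group were fitted in limma. Ratios, shares and Pearson correlations are descriptions. Sequences and exons were read from the NCBI genome and annotation of Sscrofa11.1, in which 30335 identifiers were found and 99.9% of them had the same start and end. Other tools were matplotlib 3.10.9, SciPy 1.17.1, pandas 2.3.3 and numpy 2.4.6 under Python 3.11.15. The fit was tested on simulated data.

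The members and lists were chosen with earlier results of these data known. Named were the 10 members, the 3 genes most like LOX and like the 3 other members with the smallest p, and the called and most abundant genes of each list. Alternatives changed the pseudocount (0.1, 1), the filter (none, or 1 FPKM in 7 libraries), scaling, spread estimate, library weights, voom, a replicate block, a letter covariate and the wounds included. Protein sequences were not used here.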

Additional observations from a re-analysis of the deposited data

Results flagged for a closer look

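LOXL1 in non-diabetic replicate 1, at 70.5 FPKM, lay apart from the other non-diabetic wounds (48.8 to 51.5 FPKM). Of 18 combinations of member and group examined for such a wound it was the only one. Chance alone flags about 1 in 20 such combinations, so 1 of 18 is near that rate. The same wound had the lowest keratinocyte and the highest fibroblast marker sum of its group (249 and 6653 FPKM), and their part in the value was not tested. Without it, the log2 fold change of LOXL1 was 0.47 (adjusted p = 0.41, limma).

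The difference between diabetic and non-diabetic wounds depended on the letter of the library name for LOXL2 (interaction -1.81, adjusted p = 0.0418, limma) and BMP1 (-1.13, adjusted p = 0.0426). In both genes each L-named diabetic wound lay below every R-named diabetic wound, at 136 to 266 FPKM for LOXL2 and 54.8 to 85.3 FPKM for BMP1 in the L-named ones, and 6.46% of all genes had a called interaction. What the letter stands for is not given, and each letter holds 2 non-diabetic wounds.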

How the results depend on the processing

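Of the 23 alternatives planned, 22 left 0 members called and library weights called 1, LOXL4 (1.10, adjusted p = 0.0142, limma), against 822 genes in all (5.89%). The signs of LOX, LOXL1, LOXL3, LOXL4, PCOLCE2 and TGM2 held in all 23, with log2 fold changes of -0.93 to -0.45 for LOX and 0.60 to 1.10 for LOXL4. The unadjusted p of LOX and LOXL4 lay above 0.05 without non-diabetic replicate 4 (0.0558 and 0.0596, limma). The same held with the replicate block (0.111 and 0.224, limma) and, for LOXL4, without non-diabetic replicate 3 (0.0796, limma). Against 419 genes in the comparison as reported, leaving out 1 wound gave 209 to 482 genes called. The count fell by over 1.5 times without diabetic replicate 3 (279) and without non-diabetic replicates 1 (209), 2 (273), 3 (220) or 4 (255). It was 212 without diabetic replicate 4 and non-diabetic replicate 1. Within R-named libraries 1415 genes and 4 members were called, and within L-named libraries 9 genes. The cause was not tested.

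With the replicate block, 16 genes and 0 members were called. Deviations of same-numbered wounds correlated at -0.27, 0.22, 0.07 and -0.48, so the numbers do not pair the wounds. The block turned the sign of TLL1 (0.20) and BMP1 (-0.20).

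Members near 0 changed sign under other settings. BMP1 gave -0.14 with quantile normalization, -0.073 after rescaling to the same sum, -0.020 with the letter as a covariate, -0.61 within L-named libraries and -0.085 to 0.12 without 1 wound. LOXL2 gave 0.14 with library weights, 0.65 within R-named libraries and -0.35 to 0.012 without 1 wound. TLL1 gave 0.34 within L-named libraries and -0.16 to 0.052 without 1 wound or without diabetic replicate 4 and non-diabetic replicate 1, and TLL1 was not tested under the stricter filter. TGM2 gave 0.25 to 0.82 without 1 wound and -0.30 within R-named, and LOXL1 and LOXL4 gave -0.18 and -0.023 within L-named libraries. The added alternatives were chosen after seeing the data.

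Depth limits TLL1 most, at 101 to 411 reads. With 4 non-diabetic wounds the median SE over members was 0.23 on the log2 scale. No member or library was left out for its values.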
